A study of Homo sapiens with 12 samples.

Results

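The HOX cluster genes were examined in H211 and H82, 2 established human small cell lung cancer lines, after inhibition of the histone demethylase LSD1. The members are the 39 symbols in the table made up of HOX, a cluster letter from A to D and a number, out of 56508 symbols in all: 11 HOXA, 10 HOXB, 9 HOXC and 9 HOXD genes. H211 cells were given ORY-1001, an LSD1 inhibitor, at 1 µM, or vehicle as controls; H82 cells received the same 2 treatments, and the vehicle is labelled PBS. Each of the 4 groups holds 3 libraries, 12 in all, every culture is labelled wild type, and the exposure is given as 7 days in the sample labels and as 10 days in the treatment protocol. Each background is represented by 1 line. Nothing in the labels shows whether replicates are independent cultures; the p-values therefore reflect library-to-library spread alone, which may be technical.

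HOX genes encode homeodomain transcription factors that set position along the body axis of the embryo. Within a cluster the genes stand in the order of their use, from the low-numbered anterior genes to the high-numbered posterior genes, and genes of the same number in different clusters are paralogs. Polycomb complexes, which modify histones H3 and H2A, keep HOX clusters silent, and the trithorax protein KMT2A, an H3K4 methyltransferase, keeps them active. LSD1, encoded by KDM1A, removes methyl groups from H3K4. In the mouse, Hoxa5 is needed for normal formation of the airways and lung.

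Levels are in the deposited TPM, a measure per transcript length that the authors appear to have rescaled between libraries, so levels of different genes can be set side by side. The depth behind each value is unknown. Each log2 change below is followed by its SE. Column totals ran from 967415 to 1111988, and libraries of 1 group correlated at r = 0.988 to 0.991 across genes, which are not independent replicates. The libraries carried the markers of their lines. POU2F3, the tuft-cell factor of H211, lay at 251 with ORY-1001 and 281 in controls of H211, against 1.66 with ORY-1001 and 2.31 in controls of H82. NEUROD1, the neuronal factor of H82, lay at 1.90 with ORY-1001 and 1.69 in controls of H211, against 129.9 with ORY-1001 and 137 in controls of H82, and KDM1A at 181 to 195 over the 12 libraries. Transcripts of blood cells, in which HOX genes are also known to be expressed, differed between libraries. The 22 blood markers summed to 61.8 to 93.2 in H211 with ORY-1001, 84.8 to 269 in H211 controls, 54.2 to 253 in H82 with ORY-1001 and 82.1 to 102 in H82 controls. The sum was highest in H211 control replicates 1 and 2 and in H82 ORY-1001 replicate 3, and the beta-globin HBB was at 0 in every library but H211 control replicates 1 and 2 (0.237 and 0.155). The leukocyte antigen PTPRC lay at 0.0290 to 1.24. Myeloperoxidase, MPO, stood at 8.57 in H211 ORY-1001 replicate 3, 24.3 in H211 control replicate 1 and 8.71, 8.55 and 24.3 in the H82 ORY-1001 libraries, and under 1 in the other 7. H211 control replicates 1 and 2, H211 ORY-1001 replicate 3 and H82 ORY-1001 replicate 3 are the 4 libraries that one alternative leaves out. It keeps H82 ORY-1001 replicates 1 and 2, in which the gamma-globin HBG2 was at 0 and 0.1204 and lysozyme, LYZ, at 16.0 and 18.7, close to HBG2 at 0 and LYZ at 16.0 in the H211 ORY-1001 replicate 3 that it leaves out. Elsewhere HBG2 lay at 16.8 to 53.0, and LYZ was 23.0 in H211 control replicate 2 and under 1 in the rest. All 3 treated H82 libraries thus stand apart from their controls in these genes, and no alternative removes that. The part of these transcripts in the HOX values was not tested.

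On GENCODE release 29 (GRCh38) the HOXB cluster occupies chr17:48528526-48729178, HOXC chr12:53938765-54056030 and HOXD chr2:176092891-176190907. Exons of 25 of the 39 genes overlap those of another annotated gene on either strand. The sources used here do not give whether counting used strand. Reads from the shared bases therefore cannot be told apart between these genes and their antisense or same-strand partners. The overlap covers 1.69% of HOXA13, 9.82% of HOXC10, 26.3% of HOXA10, 31.1% of HOXA11, 62.5% of HOXA7 and 74.1% of HOXD3 exon bases. HOXC5 has 2 entries under its symbol, a protein-coding one with 59.9% and a noncoding one with 99.8% of its exon bases shared, so the level under this symbol is uncertain. HOXA5, HOXC8, HOXD8, HOXD9, HOXD13 and HOXB7 share none.

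RefSeq (GRCh38.p14) promoter sequences were at hand for 20 of the 39 genes, as 27 starts; HOXC4 and HOXC5 have the same start. The 250 bases before the start, 5′ to 3′, are shown for 5 genes on which the drug results below turn: HOXA10, called in opposite directions in the 2 lines, HOXA11 and HOXA13, neighbours that went opposite ways in H82, and HOXD8 and HOXD13, which fell in H82. Capitals mark TATAAA, the TATA box, and CCAAT, the CCAAT box, on either strand. The positions are chr7:27174321-27174570, minus strand, for 1 of the 2 RefSeq starts of HOXA10; chr7:27185233-27185482, minus strand, for HOXA11; chr7:27200092-27200341, minus strand, for HOXA13; chr2:176129455-176129704, plus strand, for HOXD8; and chr2:176092471-176092720, plus strand, for HOXD13.
HOXA10: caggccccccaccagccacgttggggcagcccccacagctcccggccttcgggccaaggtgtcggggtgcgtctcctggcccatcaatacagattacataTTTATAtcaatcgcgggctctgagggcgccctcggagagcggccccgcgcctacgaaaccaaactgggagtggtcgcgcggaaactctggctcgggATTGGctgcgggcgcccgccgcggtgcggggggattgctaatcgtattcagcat
HOXA11: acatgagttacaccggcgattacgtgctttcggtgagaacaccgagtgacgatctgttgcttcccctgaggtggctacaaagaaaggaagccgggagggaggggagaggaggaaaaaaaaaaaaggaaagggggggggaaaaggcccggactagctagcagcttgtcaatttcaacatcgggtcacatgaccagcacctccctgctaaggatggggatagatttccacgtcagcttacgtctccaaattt
HOXA13: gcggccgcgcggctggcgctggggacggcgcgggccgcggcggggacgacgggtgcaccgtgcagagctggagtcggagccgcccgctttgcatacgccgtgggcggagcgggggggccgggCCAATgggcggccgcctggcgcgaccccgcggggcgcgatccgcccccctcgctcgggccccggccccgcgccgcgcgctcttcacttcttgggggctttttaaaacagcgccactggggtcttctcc
HOXD8: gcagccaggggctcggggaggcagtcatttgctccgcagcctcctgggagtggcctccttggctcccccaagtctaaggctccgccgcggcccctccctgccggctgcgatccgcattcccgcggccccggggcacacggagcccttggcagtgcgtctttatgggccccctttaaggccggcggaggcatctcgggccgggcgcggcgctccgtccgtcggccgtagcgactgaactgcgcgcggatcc
HOXD13: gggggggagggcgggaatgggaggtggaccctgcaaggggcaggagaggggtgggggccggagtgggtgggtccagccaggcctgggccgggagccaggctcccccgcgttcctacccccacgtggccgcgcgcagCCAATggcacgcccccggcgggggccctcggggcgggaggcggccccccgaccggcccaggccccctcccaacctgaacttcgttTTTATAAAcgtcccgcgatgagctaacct

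HOXA10 and HOXD13 hold matches to both boxes, and in HOXD13 TATAAA is matched once on each strand, in overlapping letters. The TATAAA match begins 150 bases before the start in HOXA10, and 29 and 27 bases before it in HOXD13. Whether these matches work as boxes was not tested. HOXA13 holds a CCAAT box alone, and HOXA11 and HOXD8 hold neither. Over all 35116 promoter entries of this length, 10.7% hold TATAAA and 32% hold CCAAT; over the 27 HOX entries the shares are 18.5% and 66.7%. CpG dinucleotides number 24 in HOXA10, 11 in HOXA11, 40 in HOXA13, 28 in HOXD8 and 21 in HOXD13, with a median of 19 over HOX entries and 11 over all. HOXA11, with the fewest of the 5, rose in H82, and HOXA13, with the most, fell there. HOXA10, with 24, rose there too, while HOXD13, with 21, and HOXD8, with 28, fell, so the counts do not follow the direction. This is a description of 5 windows only, of genes chosen by their drug results.

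The HOXC cluster carried over 50% of the summed HOX level in each H211 library, while in H82 HOXC and HOXA were the highest clusters. Summed over the 9 genes, HOXC stood at 130.2, 145 and 122 in H211 with ORY-1001, against 115, 106 and 111 in H211 controls. In H82 it stood at 25.7, 29.1 and 28.5 with ORY-1001, against 31.0, 34.2 and 33.8 in controls. The treated libraries of H211 all lie above its controls, and those of H82 all below theirs. HOXA went the other way: 28.4, 26.7 and 26.5 in H211 with ORY-1001, against 48.8, 43.9 and 45.9 in H211 controls, and 27.5, 29.2 and 25.5 in H82 with ORY-1001, against 24.6, 23.1 and 24.3 in H82 controls. The 3 treated libraries of H211 are below every control of that line, and the treated libraries of H82 are above theirs.

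HOXB was the lowest cluster in each group. It summed to 17.4 ± 0.123 with ORY-1001 and 20.7 ± 1.54 in controls of H211 (mean ± SD, 3 libraries each), and to 4.21 ± 0.736 with ORY-1001 and 5.77 ± 1.34 in controls of H82. HOXD summed to 26.2 ± 0.753 with ORY-1001 and 29.3 ± 1.66 in controls of H211, and to 15.5 ± 0.911 with ORY-1001 and 21.3 ± 0.493 in controls of H82. In H211 the total over all 39 genes was 203 ± 11.7 with ORY-1001, against 207 ± 7.60 in controls, while the share of HOXA in it was 13.4% with ORY-1001 and 22.4% in controls, and that of HOXC 65.1% with ORY-1001 and 53.5% in controls. In H82 the total was 74.8 ± 2.63 with ORY-1001, against 84.0 ± 0.652 in controls. There HOXA held 36.7% of it with ORY-1001 and 28.6% in controls, and HOXD 20.7% with ORY-1001 and 25.3% in controls. No test is given for these sums over chosen genes. In cultures, fewer cells carrying a transcript and less of it per cell cannot be told apart.

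**Figure D1:**
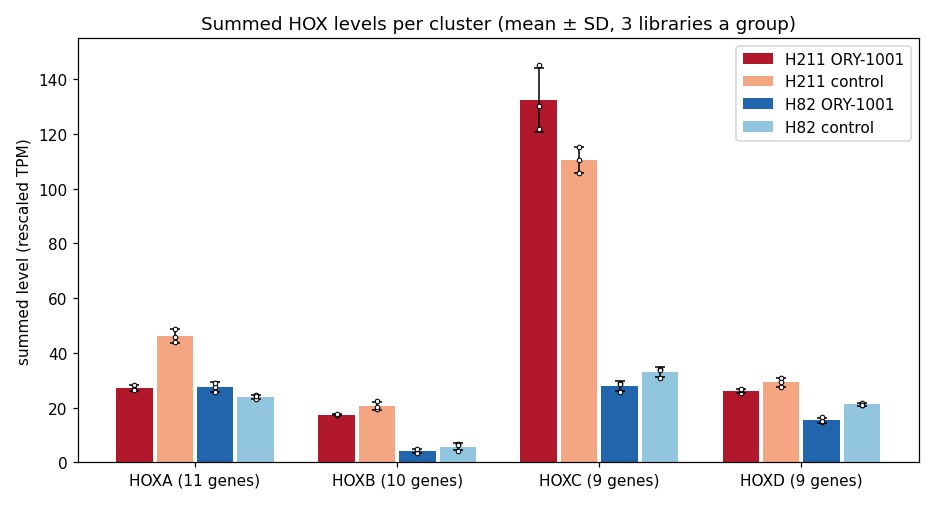
Summed level of each HOX cluster in rescaled TPM, with bars for the group mean, error bars for the SD over 3 libraries and open points for the libraries. HOXC stands at 132 in H211 with ORY-1001 and 110.5 in H211 controls, and HOXA at 27.2 with ORY-1001 and 46.2 in controls.

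A few genes made up each cluster's level. HOXC10, a posterior gene, was the highest HOX transcript of H211, at 67.7, 83.1 and 64.4 with ORY-1001 and 66.5, 58.7 and 60.6 in controls. HOXC5 followed at 36.5, 37.4 and 35.4 with ORY-1001 and 30.1, 27.9 and 27.02 in controls. HOXC10, HOXC5 and HOXC9 held 93.5% of the HOXC level of H211 controls, and no library of HOXC10 came down to the level of HOXC5. In H82 controls HOXC4 led at 11.04, 12.5 and 12.6, above every library of HOXA10 at 9.99, 8.46 and 9.25. With ORY-1001 the H82 libraries of HOXA10 (11.9, 11.6 and 9.85) and HOXC4 (8.80, 9.93 and 9.67) overlapped. HOXB7 held 59.9% of the HOXB level of H211 controls and 66.6% of that of H82 controls.

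**Figure D2:**
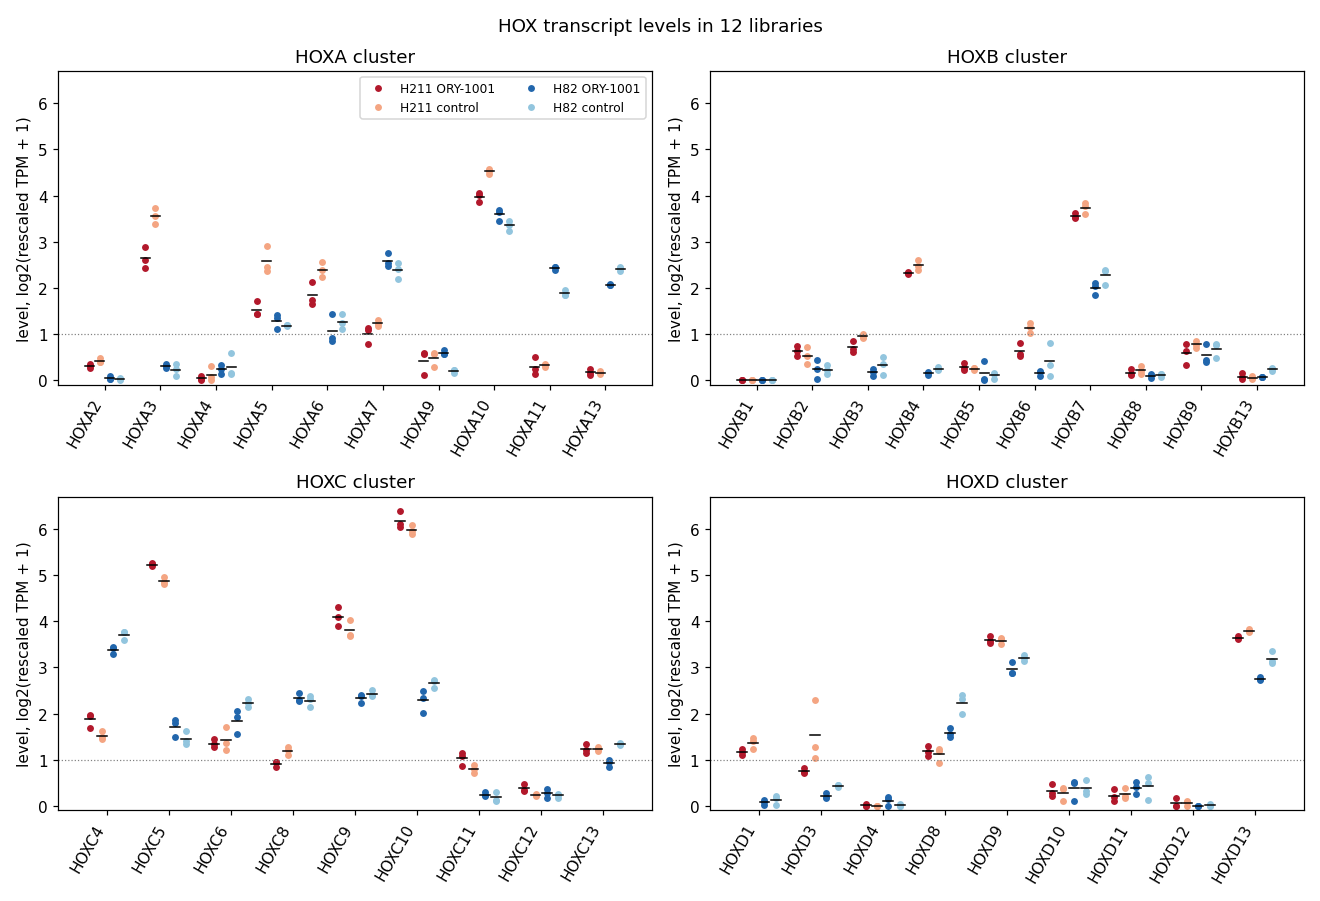
Level of 38 HOX genes as log2(rescaled TPM + 1), with a point per library and a bar for the mean of 3 libraries; colours are the 4 groups and the dotted line is a level of 1. HOXC10 is the highest gene in H211, and HOXB1 is at 0 in all 12 libraries.

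Set against H82, H211 controls were higher in HOXA3, HOXA5, HOXA6 and HOXA10, in the tested HOXB genes and in HOXC5, HOXC9 and HOXC10, and lower in HOXA7, HOXA11, HOXA13 and HOXC4. Of the 39 members 23 reached a level of 1 in at least 3 libraries and were tested; 22 of these differed between the control cultures, 15 higher and 7 lower in H211, at an adjusted p under 0.05 in limma's fit over all 15456 genes tested. Over all genes 80.5% differed, 39.7% higher and 40.8% lower. The 3 H211 libraries lay above all 3 H82 libraries for 15 members and below them for 8, where the shares over all genes were 40.4% and 41.3%. HOXB6 and HOXD3 were among the members that passed the level filter only through the 3 H211 control libraries, so they had to be higher there than in every other group. HOXA3, HOXB4 and HOXD1 reached a level of 1 in H211 libraries alone, and HOXA11 and HOXA13 in H82 libraries alone. The filter thus set the direction of their line differences too, though not the size, and the counts without overlap include all of these genes.

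HOXA3, an anterior gene, lay at 12.2, 9.42 and 10.7 in H211 controls, against 0.277, 0.184 and 0.0595 in H82 controls (log2 change 3.33 ± 0.13, adjusted p = 3.51e-10). Every H211 library is far above every H82 library, and the H82 mean is 1.61% of the H211 mean. HOXC10 was 11.6-fold higher in H211 than in H82 controls (adjusted p = 2.18e-10) and HOXC5 16.2-fold higher (3.59e-11). HOXB4 was 24.2-fold higher, at 4.62 in H211 controls and 0.191 in H82 controls (2.74e-10). HOXA13, the most posterior HOXA gene, was the other way, at 0.146, 0.0895 and 0.115 in H211 controls and 4.42, 4.15 and 4.44 in H82 controls (log2 change -2.26 ± 0.08, adjusted p = 1.72e-10). Its H211 controls are all below 1, and the groups are far apart. HOXA11 was likewise 10.6-fold lower in H211 (adjusted p = 4.44e-08) and HOXC4 6.48-fold lower (1.35e-09).

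HOXC13 was the tested member with no called difference, at 1.36 ± 0.0722 in H211 and 1.53 ± 0.0412 in H82 controls (log2 difference -0.10, adjusted p = 0.295). HOXD9 and HOXD13, both posterior HOXD genes, differed least among the genes called higher in H211, by 1.33-fold and 1.58-fold. HOXA7, HOXC6, HOXC8 and HOXD8 were also lower in H211, by 3.13-fold, 2.17-fold, 3.02-fold and 3.14-fold. All 22 calls held in each alternative in which the gene was tested. With ORY-1001, 14 of the 23 were higher and 7 lower in H211 than in H82, where 80.2% of all genes were called, 39.7% higher and 40.6% lower; libraries did not overlap for 16 higher and 7 lower members, against 40.0% and 41.1% of all genes. HOXA5, at 1.90 ± 0.319 in treated H211 and 1.46 ± 0.270 in treated H82, was no longer called (adjusted p = 0.159), nor was HOXD3 (0.0600).

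In H211, HOXA genes from the anterior side fell with ORY-1001, HOXA10 among the posterior ones fell too, and HOXC4 and HOXC5 rose. Of the 23 tested members 5 were called lower and 2 higher, 30.4% of them, where 18.6% of all 15456 genes tested were called, 9.61% lower and 8.95% higher. By cluster, 4 of 8 tested HOXA genes fell and 0 rose, 2 of 7 HOXC genes rose and 0 fell, 1 of 5 HOXD genes fell and 0 of 3 HOXB genes changed. With every library scaled to the same total the split was 7 lower and 0 higher. Treated libraries lay below every control for 12 members and above for 2, where the shares over all genes were 18.4% and 17.0%. Members that passed the level filter only through the 3 H211 controls, HOXB6 and HOXD3 among them, had to lie below those controls with ORY-1001. The filter set their direction, and the 12 and the lower calls in HOXA and HOXD include such members. Without the 4 libraries named above, which leaves 1 H211 control, 2 members were called, HOXA10 and HOXA5. The median log2 fold change was -0.17 over the 23 members, -0.55 over the 8 HOXA genes and 0.20 over the 7 HOXC genes, where it was -0.002 over all genes.

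HOXA5 lay at 2.27, 1.72 and 1.71 in H211 with ORY-1001, against 6.55, 4.44 and 4.13 in H211 controls, 2.65-fold lower (log2 change -1.04 ± 0.15, adjusted p = 0.000660). The 3 treated libraries are all below the lowest control, and the highest control is replicate 1. HOXA3 lay at 6.37, 5.05 and 4.42 with ORY-1001, against 12.2, 9.42 and 10.7 in controls, 2.04-fold lower (log2 change -0.91 ± 0.13, adjusted p = 0.000673). Again no treated library reaches a control. HOXA10 lay at 13.5, 15.1 and 15.6 with ORY-1001 and 22.0, 21.2 and 22.8 in controls, 1.49-fold lower (log2 change -0.55 ± 0.08, adjusted p = 0.00107). The groups do not overlap, and each is narrow beside the gap between them.

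The other tested HOXA genes were not called in H211. HOXA6, between HOXA5 and HOXA7, lay at 3.37, 2.34 and 2.14 with ORY-1001 and 3.72, 4.89 and 4.21 in controls (log2 fold change -0.55, adjusted p = 0.0518), and HOXA7 at 1.17, 1.1104 and 0.734 with ORY-1001 and 1.26, 1.33 and 1.47 in controls (adjusted p = 0.225). In each the treated libraries lie below every control. HOXA11 and HOXA13 lay under 1 in all H211 libraries (adjusted p = 0.870 and 0.962). HOXA3, HOXA5 and HOXA10 were each called in every alternative in which they were tested, except that HOXA3 had adjusted p = 0.0634 without the 4 libraries.

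HOXC5 lay at 36.5, 37.4 and 35.4 in H211 with ORY-1001, against 30.1, 27.9 and 27.02 in controls, 1.29-fold higher (log2 change 0.35 ± 0.10, adjusted p = 0.0348). HOXC4 lay at 2.21, 2.94 and 2.88 with ORY-1001 and 1.71, 1.79 and 2.09 in controls, 1.44-fold higher (log2 change 0.36 ± 0.10, adjusted p = 0.0296). In both genes every treated library is above every control, and the annotation gives them shared exons and a shared RefSeq start. HOXC10, at 67.7, 83.1 and 64.4 with ORY-1001 and 66.5, 58.7 and 60.6 in controls, was not called (log2 change 0.20 ± 0.12, adjusted p = 0.295), nor was HOXC9, at 18.9, 16.0 and 14.0 with ORY-1001 and 11.8, 12.1 and 15.3 in controls (0.106); in both the groups overlap. The calls were narrow. HOXC5 had adjusted p = 0.0541 to 0.0966 when any 1 of the 6 H211 libraries was left out, and HOXC4 0.0858 to 0.0992 with any 1 of control replicates 1 and 2 and ORY-1001 replicates 2 and 3 of H211 left out. Scaled to the same total they had 0.0530 and 0.0584, and without the 4 libraries 0.162 and 0.563.

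In HOXD and HOXB, HOXD3 was the only call in H211. It passed the level filter only through the 3 H211 controls, so it had to lie lower with ORY-1001. It lay at 0.674, 0.760 and 0.635 with ORY-1001, against 3.90, 1.41 and 1.06 in controls (log2 change -0.78 ± 0.25, adjusted p = 0.0478), and its highest value is in H211 control replicate 1, where MPO was at 24.3 and the 22 blood markers summed to 255; their part was not tested. HOXD3, which overlaps antisense HAGLR, lost the call in 13 of 17 alternatives, and fell below the level filter when any H211 control was left out; without H211 ORY-1001 replicate 1, 2 or 3 its adjusted p was 0.0896 to 0.111, and without any 1 H82 library 0.0582 to 0.0629. HOXD9 lay at 10.5, 10.9 and 11.7 with ORY-1001 and 10.4, 11.4 and 11.2 in controls of H211, with overlapping libraries (adjusted p = 0.977). HOXD13 lay at 11.3, 11.8 and 11.4 with ORY-1001 and 13.2, 12.8 and 12.6 in controls (0.173) and HOXB7 at 10.3, 10.6 and 11.3 with ORY-1001 and 11.1, 12.7 and 13.3 in controls (0.278); HOXD13 is lower in every treated library, and HOXB7 overlaps. HOXB4 and HOXB6, at 3.97 and 0.563 with ORY-1001 and 4.62 and 1.20 in controls, had adjusted p = 0.192 and 0.0555. HOXC6, HOXC8, HOXC13, HOXD1 and HOXD8 had 0.0732 to 0.995.

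**Figure D3:**
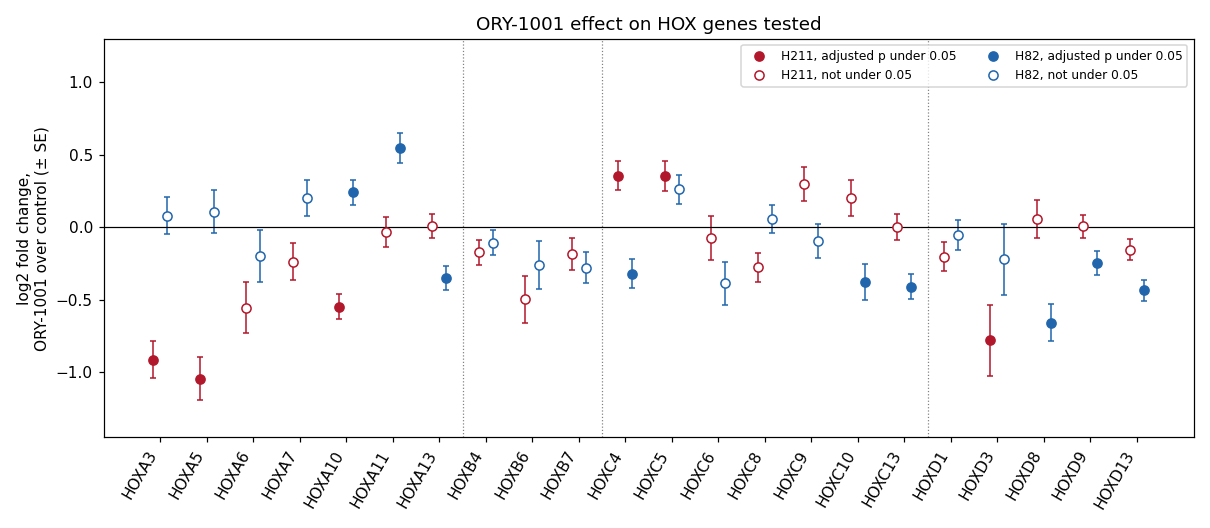
Log2 fold change of ORY-1001 over control (± SE, limma, 3 against 3 libraries) for 22 HOX genes tested, H211 in red and H82 in blue; filled points have an adjusted p under 0.05 and dotted lines part the clusters. HOXA5 in H211 is lowest at -1.04, and HOXA11 in H82 highest at 0.55.

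Neighbours on the anterior side of the HOXA cluster fell in H211 as well. HOTAIRM1, a noncoding RNA of the HOXA cluster, lay at 11.7, 9.15 and 11.4 in H211 with ORY-1001, against 19.2, 20.8 and 27.5 in controls, 2.09-fold lower (log2 change -0.99 ± 0.22, adjusted p = 0.0101). The groups do not overlap. HOXA-AS2 (chr7:27107777-27134302), read from the opposite strand around HOXA3, lay at 0.422, 0.406 and 2.10 with ORY-1001 and 2.42, 3.66 and 3.05 in controls (log2 change -1.13 ± 0.25, adjusted p = 0.0106), with ORY-1001 replicate 3 nearest the controls. SKAP2 (chr7:26667062-26995239), an adaptor protein gene outside the cluster, lay at 17.2, 14.7 and 15.4 with ORY-1001 and 31.8, 33.7 and 31.7 in controls, 2.06-fold lower (log2 change -0.998 ± 0.10, adjusted p = 5.30e-05). All 3 treated libraries are far below the controls.

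Beyond SKAP2, SNX10, a sorting nexin gene, was at 10.6 with ORY-1001 and 9.74 in controls of H211 (adjusted p = 0.559), and HIBADH, an enzyme gene past the posterior end, at 15.4 with ORY-1001 and 17.7 in controls (0.0525). Of the 11 tested noncoding transcripts of the 4 clusters 2 fell and 0 rose in H211, and of 11 tested flanking genes 1 fell and 0 rose. Over all genes 9.61% fell and 8.95% rose. These counts are small and were not tested against those shares. The medians were -0.12 and -0.13, against -0.002 over all genes. HAGLR, an antisense RNA of the HOXD cluster, and HAGLROS, a noncoding RNA on the same strand as the HOXD genes, had adjusted p = 0.0619 and 0.192. HOTAIRM1 had 0.135 with a pseudocount of 0.1 and 0.0580 without the 4 libraries; SKAP2 was called in all alternatives. In H82, SKAP2 was low, at 1.46, 1.42 and 1.302 with ORY-1001 and 2.25, 1.49 and 2.14 in controls (log2 change -0.30 ± 0.10, adjusted p = 0.0332), and lost the call in 8 of 22 alternatives.

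**Figure D4:**
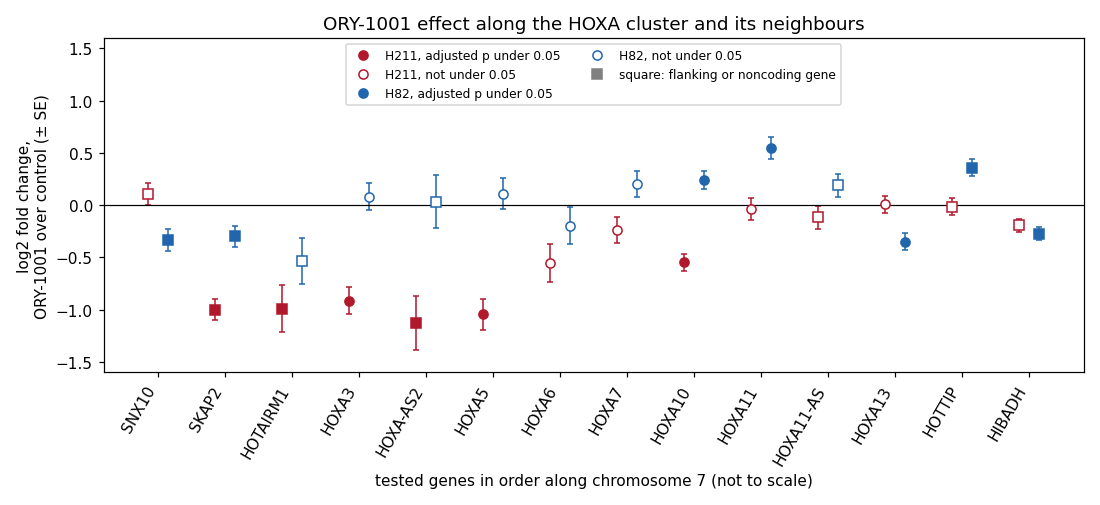
Log2 fold change of ORY-1001 over control (± SE) for tested genes in their order along chromosome 7, not to scale, H211 in red and H82 in blue; circles are HOX genes, squares are noncoding or flanking genes, and filled symbols have an adjusted p under 0.05. In H211, SKAP2, HOTAIRM1, HOXA3, HOXA-AS2, HOXA5 and HOXA10 are called lower, and in H82, HOXA10, HOXA11 and HOTTIP are called higher and SNX10, SKAP2, HOXA13 and HIBADH lower.

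In H82, HOXD8, HOXD9 and HOXD13 and HOXC4, HOXC10 and HOXC13 fell with ORY-1001, and within HOXA the neighbours HOXA11 and HOXA13 changed in opposite directions. Of the 23 tested members 7 were called lower and 2 higher, 39.1% of them, where 43.0% of all genes tested were called, 23.9% lower and 19.1% higher. By cluster, 3 of 5 tested HOXD genes and 3 of 7 HOXC genes fell with 0 higher, 2 of 8 HOXA genes rose and 1 fell, and 0 of 3 HOXB genes changed. With quantile normalization the split was 4 lower and 3 higher. Treated libraries lay below every control for 10 members and above for 1, where the shares over all genes were 28.7% and 23.6%. Without the 4 libraries 8 members were called. The median log2 fold change was -0.20 over the 23 members, where it was -0.02 over all genes.

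HOXD13, the most posterior HOXD gene, lay at 5.57, 5.73 and 5.92 in H82 with ORY-1001, against 7.77, 9.18 and 7.48 in H82 controls, 1.42-fold lower (log2 change -0.44 ± 0.07, adjusted p = 0.000556). HOXD8 lay at 1.92, 2.23 and 1.82 with ORY-1001 and 4.25, 2.99 and 3.998 in controls, 1.88-fold lower (log2 change -0.66 ± 0.13, adjusted p = 0.00167). In both, the 3 treated libraries lie below every control, and both calls held in each alternative in which the gene was tested. HOXD9, between them, lay at 6.41, 6.36 and 7.64 with ORY-1001 and 8.70, 7.74 and 8.27 in controls (log2 change -0.25 ± 0.08, adjusted p = 0.0273). Its groups are close, with the highest treated library just under the lowest control, and with any 1 of control replicates 1 and 3 and ORY-1001 replicates 1 and 2 of H82 left out its adjusted p was 0.0656 to 0.0958, and with quantile normalization 0.0990.

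HOXC13, the most posterior HOXC gene, lay at 0.935, 0.986 and 0.803 with ORY-1001, against 1.49, 1.55 and 1.56 in controls of H82, 1.69-fold lower (log2 change -0.41 ± 0.09, adjusted p = 0.00307). All treated libraries are under 1 and all controls above it. HOXC10 lay at 3.06, 4.64 and 4.05 with ORY-1001 and 4.89, 5.53 and 5.61 in controls (log2 change -0.38 ± 0.12, adjusted p = 0.0273), with ORY-1001 replicate 1 lowest. HOXC4 lay at 8.80, 9.93 and 9.67 with ORY-1001 and 11.04, 12.5 and 12.6 in controls, 1.27-fold lower (log2 change -0.32 ± 0.10, adjusted p = 0.0229). For these genes too the groups do not overlap. With any 1 of control replicates 2 and 3 and ORY-1001 replicate 1 of H82 left out, HOXC10 had adjusted p = 0.0744 to 0.102 and HOXC4 0.0742 to 0.0822; with quantile normalization they had 0.0811 and 0.0829, and without the 4 libraries 0.0765 and 0.0687. HOXC5, at 2.49, 2.60 and 1.82 with ORY-1001 and 1.54, 2.08 and 1.64 in controls of H82, was not called (0.0596), nor were HOXC6, HOXC8 and HOXC9 (0.0573, 0.691 and 0.568).

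HOXA11, a posterior gene, lay at 4.43, 4.24 and 4.46 in H82 with ORY-1001, against 2.86, 2.59 and 2.60 in controls, 1.63-fold higher (log2 change 0.55 ± 0.10, adjusted p = 0.00140). HOXA13, the next gene, lay at 3.16, 3.16 and 3.25 with ORY-1001 and 4.42, 4.15 and 4.44 in controls, 1.36-fold lower (log2 change -0.35 ± 0.08, adjusted p = 0.00492). In neither gene do the groups overlap, and with a pseudocount of 0.1 their adjusted p was 0.0912 and 0.133. HOTTIP (chr7:27198575-27207259), the noncoding RNA read from the opposite strand beyond HOXA13, lay at 1.41, 1.34 and 1.28 with ORY-1001 and 0.861, 0.787 and 0.832 in controls (log2 change 0.36 ± 0.08, adjusted p = 0.00451), and was the 1 noncoding transcript of 11 tested that rose, with 0 lower, where 19.1% of all genes rose and 23.9% fell. HOTTIP passed the level filter only through its 3 treated H82 libraries, so these had to lie above their controls. With a pseudocount of 0.1 its adjusted p was 0.0798. HOXA10 lay at 11.9, 11.6 and 9.85 with ORY-1001 and 9.99, 8.46 and 9.25 in controls (log2 change 0.24 ± 0.08, adjusted p = 0.0371), with ORY-1001 replicate 3 below the highest control; with any 1 of control replicates 2 and 3 and ORY-1001 replicates 1 and 2 of H82 left out the adjusted p was 0.0767 to 0.135, without H211 control replicate 1 it was 0.0503, and under the replicate block 0.0605.

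HOXA7 lay at 4.52, 5.71 and 4.81 in H82 with ORY-1001 and 3.55, 4.33 and 4.81 in controls, with overlapping libraries (adjusted p = 0.216). HOXB7 lay at 3.30, 2.57 and 3.08 with ORY-1001 and 4.16, 4.21 and 3.16 in controls (0.0590), also overlapping. HOXA3 and HOXA5, which fell in H211, were low in H82: HOXA3 lay under 1 in all 6 libraries, and HOXA5 at 1.56, 1.67 and 1.15 with ORY-1001 and 1.295, 1.28 and 1.24 in controls (adjusted p = 0.668 and 0.606). MPO was above 8 in all 3 treated libraries of H82 and under 0.1 in its controls, so these HOX changes and MPO moved together, and its part in them was not tested.

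The responses of the lines differed for 10 of the 23 tested members, 5 with a higher and 5 with a lower effect in H211 than in H82, or 43.5% of them, where 32.1% of all genes tested differed (17.8% higher and 14.3% lower). The split was 3 higher and 5 lower with libraries scaled to the same total, and 3 higher and 7 lower with quantile normalization. Among the lower ones are HOXA3, HOXA5, HOXA10 and HOXA11, and the 5 higher ones are HOXA13, HOXC4, HOXC10, HOXC13 and HOXD8. The counts include members that passed the level filter only through the 3 H211 controls. HOXA10 and HOXC4 were called in both lines, each in opposite directions. HOXA10 had a log2 fold change of -0.55 in H211 and 0.24 in H82 (difference -0.79, SE 0.12, adjusted p = 0.000516), and HOXC4 one of 0.36 and -0.32 (difference 0.68, SE 0.14, adjusted p = 0.00393). HOXA5 had the largest difference among the members, -1.15 (adjusted p = 0.00177), followed by HOXA3 with -0.99 (0.00198). HOXA3, HOXA5 and HOXA10 kept this call in every alternative in which they were tested. The H82 part of the HOXA3 difference rests on levels under 1.

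HOXD8, HOXA11, HOXC10, HOXC13 and HOXA13 had differences of 0.71, -0.58, 0.58, 0.41 and 0.36, with adjusted p = 0.0117, 0.0115, 0.0248, 0.0264 and 0.0344. Without the 4 libraries the difference of HOXC4 had adjusted p = 0.110 and that of HOXD8 0.0553. HOXA13, HOXC10 and HOXC13 lost the call in 14 of 21, 9 of 22 and 8 of 21 alternatives in which they were tested. The difference of HOXA11 had adjusted p = 0.142 with a pseudocount of 0.1. For HOXC5, HOXD3, HOXD9 and HOXD13, each called in 1 line, the difference between the lines had adjusted p = 0.676, 0.249, 0.113 and 0.0566. Among the neighbours, SKAP2, called lower in both lines, differed by -0.70 (0.00347), and HOTAIRM1 had 0.297. HOTTIP differed by -0.37 (0.0302), HOXA-AS2 by -1.16 (0.0294) and HAGLR by -0.53 (0.0262). The level filter set the direction of the HOTTIP change in H82, and HOTTIP lay at no more than 0.0430 in H211. The call was lost in 8 of 17 alternatives for HOTTIP and 9 of 20 for HOXA-AS2. Of the 11 tested noncoding transcripts 3, HOTTIP among them, had a lower and 0 a higher effect in H211, and of 11 flanking genes 2 and 4, against 14.3% and 17.8% of all genes.

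HOX proteins bind DNA with partners of the TALE class, the PBX, MEIS and PKNOX factors, and several of these fell in H82. Of 9 genes, all tested, 6 fell and 0 rose in H82 (23.9% of all genes fell and 19.1% rose; median log2 fold change -0.54, against -0.02 over all genes), and 2 fell and 0 rose in H211 (9.61% of all genes fell and 8.95% rose; median -0.04, against -0.002). MEIS3 lay at 0.548, 0.627 and 0.716 in H82 with ORY-1001, against 7.42, 8.08 and 9.94 in controls, 13.5-fold lower (log2 change -2.53 ± 0.11, adjusted p = 4.48e-08). All its treated libraries are under 1. MEIS3, 1 of the 6, passed the level filter only through the H82 controls, so the filter set the direction of its change, though not the size. PBX3 was 1.56-fold lower in H82, at 32.1 ± 0.919 with ORY-1001 and 50.1 ± 1.95 in controls (adjusted p = 7.95e-05). In H211, MEIS1, a partner of HOX proteins, lay at 2.34, 2.19 and 1.61 with ORY-1001 and 2.80, 3.33 and 4.93 in controls (log2 change -0.60 ± 0.15, adjusted p = 0.0175), and had adjusted p = 0.0658 without H211 ORY-1001 replicate 3. PBX2 was 1.22-fold lower (0.0315), a call lost in 8 of 22 alternatives, among them the replicate block (0.0576).

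Of 32 tested Polycomb genes, 14 fell and 6 rose in H82 and 2 fell and 2 rose in H211, with median log2 fold changes of -0.07 and -0.03, against -0.02 and -0.002 over all genes. Set beside these and the next 2 counts, 43.0% of all genes were called in H82 (23.9% lower and 19.1% higher) and 18.6% in H211, so the 4 Polycomb calls of 32 in H211 lie below the share over all genes. RBBP4, a histone-binding subunit shared with other complexes, was 1.38-fold lower in H82 (adjusted p = 1.53e-06), and PCGF5, a subunit of the H2A ubiquitin ligase PRC1, 1.74-fold higher (2.77e-05). In H211 the PRC2 subunit SUZ12 was 1.17-fold lower (adjusted p = 0.0264, and 0.0668 to 0.102 with any 1 of control replicates 1 and 2 and ORY-1001 replicates 1 and 2 of H211 left out). Of 19 tested trithorax, H3K27 demethylase and DOT1L genes, 9 fell and 0 rose in H82, led by ASH2L and KAT6A (1.34-fold and 1.88-fold lower), and in H211 the chromatin adaptor PSIP1 rose 1.20-fold (0.00117) with 0 lower; the medians of this list were -0.24 in H82 and -0.02 in H211. Of the 11 tested flanking genes 6 fell and 1 rose in H82, among them CALCOCO2 beside HOXB and CALCOCO1 beside HOXC (1.96-fold and 1.59-fold lower). The 9 ParaHox, EVX and MNX1 genes, relatives of the HOX genes outside or at the edge of the clusters, were all too low to test.

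The other 16 members did not reach the level filter and were not tested. HOXB1, the most anterior HOXB gene, was listed at 0 in all 12 libraries, and HOXD4 and HOXD12 at no more than 0.137 and 0.1197. HOXC11 came closest, with 2 libraries above 1: it lay at 0.808, 1.12 and 1.22 in H211 with ORY-1001, 0.835, 0.747 and 0.635 in H211 controls and at most 0.226 and 0.236 in H82 with ORY-1001 and in controls. Just inside the filter, with 3 libraries at 1 or more, were HOXB6 and HOXD3, among others; HOXB6 lay at 0.755, 0.444 and 0.491 with ORY-1001 and 1.37, 1.03 and 1.21 in controls of H211. HOXA9, known for its part in leukaemia, lay at 0.488, 0.486 and 0.565 in H82 with ORY-1001, against 0.162, 0.160 and 0.113 in H82 controls, and at 0.504, 0.0872 and 0.472 with ORY-1001 and 0.478, 0.217 and 0.497 in controls of H211; the H82 groups do not overlap, and the level is under 1 throughout. The highest value in any library was 0.997 for HOXB3, 0.809 for HOXB9, 0.675 for HOXB2, 0.547 for HOXD11, 0.505 for HOXA4 and 0.470 for HOXD10, and 0.208 to 0.395 for HOXA2, HOXB5, HOXB8, HOXB13 and HOXC12.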

How the data were processed

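The deposited table holds a signal per gene symbol for 12 libraries, which the authors' file calls TPM; it appears to have been rescaled between libraries, since totals differ and 8 of 12 are above the sum TPM can have. Poly(A) RNA was selected and sequenced on an Illumina instrument, per the labels' protocols. The submitters' processing notes name, without roles, sleuth 0.30.0, Salmon 1.1.0, R 4.0.4, DESeq2, Subread 1.5.2 with featureCounts, STAR 2.5.2b, Trimmomatic 0.36 and hg38. Read counts were not analysed here, so depth and counting error are unknown. The planned TPM tests were used for the rescaled values. Values were analysed as log2(level + 1), which understates changes of low genes. Genes at 1 or more in at least 3 libraries were fitted with limma 3.58.1 in R 4.3.3 (4 group means, eBayes with trend, two-sided, Benjamini-Hochberg over 15456 genes, called under 0.05); folds are ratios of group means. The fit was tested on simulated data. Results for some genes are not reported here, though counts include them. The members, lists and tests were chosen with earlier results of these data known. Named were HOX genes called in a drug comparison or averaging 5 or more in a group, and up to 2 called members of each list by smallest p; other values are given as ranges. HAGLR, HAGLROS, SNX10, HIBADH, HOXA6, HOXA9 and HOXB4 were named after their values were seen. Groups and replicate numbers come from the sample descriptions. Alternatives changed the pseudocount, filter, scaling, variance prior, replicate block and libraries used.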

Additional observations from a re-analysis of the deposited data

Results flagged for a closer look

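The effect of ORY-1001 differed between the lines, by the interaction contrast of limma's fit, for HOX genes in both directions, and each is given as the log2 effect in H211 minus that in H82. It was -1.15 for HOXA5, -0.99 for HOXA3, -0.79 for HOXA10 and -0.58 for HOXA11, with the lower effect in H211. It was 0.71 for HOXD8, 0.68 for HOXC4, 0.58 for HOXC10, 0.41 for HOXC13 and 0.36 for HOXA13, the 5 with the higher effect in H211. The change was called in H211 alone for HOXA3 and HOXA5, in H82 alone for HOXD8, HOXC10, HOXC13, HOXA11 and HOXA13, and in both lines, in opposite directions, for HOXA10 and HOXC4. HOXA11 and HOXA13 lay under 1 in every H211 library, so their effects there rest on low values. HOXA3 lay under 1 in every H82 library, so its effect in H82 rests on low values as well.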

How the results depend on the processing

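No called HOX gene changed direction in any alternative. With 1 library left out, called HOX genes numbered 3 to 7 for the drug in H211 (7 with all libraries), 6 to 10 in H82 (9), 7 to 10 for the difference of effects (10), 19 to 22 between control cultures (22) and 19 to 21 between treated cultures (21). In H211 the count was 3 without H211 control replicate 1 or 2 and 4 without H211 ORY-1001 replicate 2 or 3; without a control of H211, HOXB6 and HOXD3 no longer passed the filter. The same ranges over all genes were 1960 to 3042 in H211, 5728 to 6647 in H82, 4299 to 4614, 11989 to 12395 and 11936 to 12355. Without H211 control replicates 1 and 2, H211 ORY-1001 replicate 3 and H82 ORY-1001 replicate 3, which leaves 1 H211 control assumed to vary like the other groups, 2 HOX genes were called in H211 (559 genes in all, against 2868) and 4 for the difference (2899 against 4956); those in H82 numbered 8. Among genes at 5 or more in 3 libraries, 9 HOX genes were left to test, and 4, 5, 4, 9 and 9 were called in H211, in H82, for the difference and between control and treated cultures. With no filter, 4 were called in H211. With every library scaled to the same total, the median log2 difference of all genes between control cultures was 0.09 (-0.02 as deposited), with no HOX call changing sign, and the genes called in H211 were 951 higher and 1768 lower (1383 and 1485 as deposited). Same-numbered treated and control libraries did not deviate together (r of deviations -0.080 to 0.045), so the numbers pair nothing known. The replicate block gave 6 HOX calls in H211, 9 in H82 and 9 for the difference; HOXD3 had adjusted p = 0.0508 in H211, and HOXA10 in H82 (0.0605) and HOXA13 for the difference (0.0527) lost their calls with it. As alternatives chosen after the data were seen, the ratio of summed levels with ORY-1001 over control, with 1 library left out, was 0.575 to 0.607 for HOXA, 0.814 to 0.876 for HOXB, 1.14 to 1.25 for HOXC and 0.871 to 0.922 for HOXD in H211, and 1.105 to 1.18, 0.645 to 0.795, 0.817 to 0.873 and 0.703 to 0.745 in H82; rescaling moved none by more than its SD. Depth is unknown and limits the genes near a level of 1. Where no cause is given for a lost call, the cause was not tested.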
